A study of Mus musculus with 22 samples.

Results

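A set of 9 genes that mark lymphocytes was followed in bulk RNA sequencing of CD11b+ cells from neonatal mouse brain. They comprise 3 T cell genes (Cd3e, Cd3d and Cd3g), 3 natural killer (NK) and cytotoxic cell genes (Nkg7, Gzma and Klrb1c) and 3 B cell genes (Cd79a, Cd79b and Ms4a1), and were taken by name. All 9 were present in both deposited count tables, among 56691 genes in all. The question was how much lymphocyte transcript such a preparation holds, and whether it differs between injured and control pups.

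The study used outbred CF-1 mice in a model of neonatal hypoxic-ischemic encephalopathy (HIE) with a pair of insults, in which the dam received lipopolysaccharide (LPS), an inflammatory stimulus from bacteria, on E18 and the pups then breathed low oxygen on P6. There were 20 animals in 5 groups of 4, namely HIE at P7, controls of the same acute batch, and HIE, hypoxia and control animals at P14. The hypoxia group is given in the labels by that word alone. The acute controls carry the day labels P8, P9, P10 and P11, 1 pup each, although the study's text places them at P7. All 4 HIE pups at P7 were labelled male, and every other group held 2 males and 2 females. In the acute comparison, called P7 below, treatment therefore cannot be told apart from labelled day and is mixed with sex. Each group came from 2 litters and no litter entered more than 1 group, so litter and treatment cannot be told apart, and the acute and P14 animals were deposited as separate batches, so day and batch cannot be told apart either. CD11b, the product of Itgam, lies on microglia, monocytes and neutrophils and on part of the NK cells, and the cells carrying it were pulled from the whole brain on magnetic beads.

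Total counts per animal were 70191584 to 83469067 in the acute batch and 29751540 to 76166821 at P14, and 3 counts, the floor used here for detection, equal 0.0359 to 0.101 CPM in an animal, CPM being a count scaled to a fixed total per animal. The labels call the cells monocytes, while 12 microglia markers (Tmem119, P2ry12, Csf1r and others) summed to 14003 to 31940 CPM in 18 animals and 6 monocyte markers to 47.4 to 101 CPM in all 20. The 2 acute controls of litter P6H63 stood apart, with microglia markers at 2172 and 1419 CPM and with astrocyte, endothelial and meningeal fibroblast markers above those of every other animal. Values with the other acute control litter, P6H55, as the only controls are therefore given beside the results that rest on the acute controls.

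T cells and B cells recognise antigen through receptors that cannot signal alone. The T cell receptor passes its signal through the CD3 chains, encoded by Cd3e, Cd3d and Cd3g, and the B cell receptor through CD79A and CD79B. NK cells carry no such rearranged receptor and kill with stored granules, which hold granzyme A (Gzma) and the membrane protein NKG7, and in several mouse strains they are recognised by NK1.1, the product of Klrb1c. Ms4a1 encodes CD20, a surface protein of B cells from the late precursor stage onward. In the newborn brain these lymphocytes are rare and are found mostly in the meninges and choroid plexus, whereas microglia make up most of the immune cells.

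The CD3 and CD79 chains share a signalling element that the choice of genes did not use, the immunoreceptor tyrosine-based activation motif (ITAM). The ITAM coding stretch is shown for the 5 genes that carry it because it is the element that these signalling chains share. It was searched for in frame on the coding strand as a tyrosine codon (TAT or TAC), 2 further codons, a leucine or isoleucine codon, 6 to 8 codons, and the same block again. A match was found in 5 of the 9 genes and in 618 of 21548 canonical coding sequences of GENCODE M39 (2.87%). Capitals mark the tyrosine and leucine or isoleucine codons, and each sequence is given 5′ to 3′ on the coding strand of GRCm39.
Cd3e: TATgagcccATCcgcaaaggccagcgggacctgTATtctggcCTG
Cd3d: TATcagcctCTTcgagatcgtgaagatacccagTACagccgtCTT
Cd3g: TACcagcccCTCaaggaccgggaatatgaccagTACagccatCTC
Cd79a: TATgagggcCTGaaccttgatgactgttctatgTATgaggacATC
Cd79b: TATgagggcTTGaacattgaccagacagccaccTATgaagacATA

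All 5 stretches were 45 bases long and each spanned 2 coding exons near the 3′ end of the coding sequence. The stretches of Cd3d and Cd3g were identical at 32 of 45 bases (71.1%) and those of Cd79a and Cd79b at 31 (68.9%), while Cd3e matched each of Cd3d and Cd3g at 21 bases, and between the CD3 and CD79 genes 13 to 23 bases matched. The Cd3e stretch was thus no closer to those of the other CD3 genes than to that of Cd79b (23 bases). Cd3g (chr9:44880870-44891735, minus strand), Cd3d (chr9:44893083-44899173, plus strand) and Cd3e (chr9:44910037-44920925, minus strand) lie side by side without overlap. The Cd79a gene is at chr7:24596740-24601622 on the plus strand and Cd79b at chr11:106202167-106205588 on the minus strand.

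Of all counts that the 9 genes gave over the 20 animals, Cd79b alone held 86.0%. The others held between 0.500% (Cd3g) and 4.01% (Cd79a). Cd79b had 58 to 920 counts and was above 3 counts in all 20 animals. Cd79a and Ms4a1 were above 3 counts in 19 animals and Cd3d in 18. The remaining genes were at the limit of detection. Nkg7 was above 3 counts in 10 animals, Cd3e in 9, Gzma and Klrb1c in 7 each, and Cd3g in 4. In bulk samples, fewer cells of a type and less RNA per cell cannot be told apart, so these levels do not count cells.

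**Figure D1:**
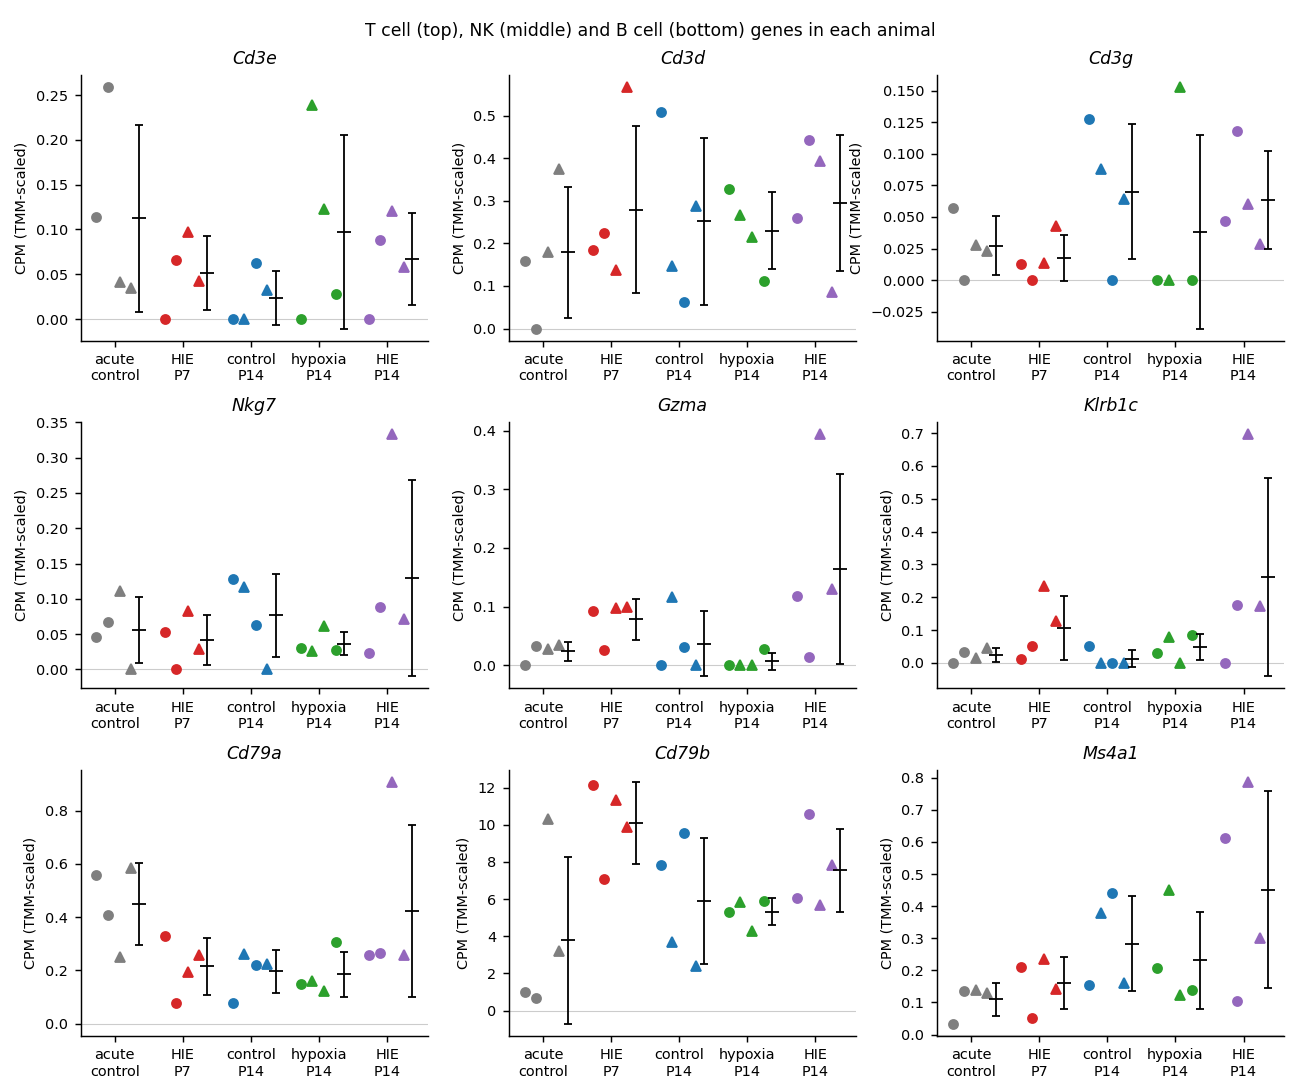
Level of each gene in every animal as CPM scaled by TMM (y axis, linear and different in each panel) in the 5 groups (x axis). Circles and triangles are the 2 litters of a group, and the black bar is the mean with the SD of 4 animals. Cd79b reaches 12.1 CPM and no other gene passes 1 CPM in any animal.

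The T cell genes were close to the floor and did not separate the groups. Cd3e, the chain needed for assembly of every CD3 complex, had 0, 5, 7 and 3 counts in the HIE P7 pups against 10, 23, 3 and 3 in the acute controls. The 2 highest of these 8 values were both from litter P6H63, and the remaining controls were within the HIE range. At P14, Cd3e had 0, 6, 4 and 4 counts in HIE, 0, 9, 4 and 1 in hypoxia and 0, 0, 2 and 1 in control animals. Every P14 control was thus at or under 3 counts, and the groups overlapped. Mean levels were 0.0514 ± 0.0409 CPM in HIE P7 and 0.113 ± 0.104 in acute controls, then 0.0668 ± 0.0516 in HIE, 0.0974 ± 0.108 in hypoxia and 0.0237 ± 0.0302 in control animals at P14 (SD, n = 4 each). An exact two-sided permutation test gave p = 0.400 for the acute comparison and p = 0.286 for HIE against control at P14. The mean of the P6H55 controls alone was 0.0385 CPM, below that of the HIE pups, so the direction at P7 turned with the control litter.

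Cd3d, which pairs with Cd3e, was the most abundant T cell gene. It had 14, 17, 10 and 40 counts in HIE P7 pups and 14, 0, 13 and 32 in acute controls. HIE P14 animals had 11, 30, 13 and 6 counts, hypoxia animals 11, 10, 7 and 4, and P14 controls 20, 5, 2 and 9. All groups overlapped, and the range within each treatment group at P14 exceeded the difference between the group means, which were 0.296 ± 0.160, 0.230 ± 0.0910 and 0.252 ± 0.196 CPM for HIE, hypoxia and control. The fitted log2 fold change was 0.62 ± 0.89 (SE) at P7 and 0.16 ± 0.65 for HIE against control at P14, with adjusted p = 0.648 and 0.966 by edgeR's quasi-likelihood test. With the P6H55 controls alone the P7 value was -0.02.

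Cd3g, the partner chain encoded next to Cd3d, had 8 counts at most. The 4 hypoxia animals had 0, 0, 5 and 0 counts, the HIE P14 animals 2, 8, 2 and 2, and the P14 controls 5, 3, 0 and 2. In the acute batch the counts were 1, 0, 1 and 3 in HIE and 5, 0, 2 and 2 in control pups. These values do not allow a difference to be detected at this depth.

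The NK genes were near the floor in most animals, and the highest CPM of each was in HIE P14 replicate 3. Klrb1c had 1, 4, 17 and 9 counts in the HIE P7 pups against 0, 3, 1 and 4 in the acute controls. The 2 higher HIE pups were both of litter N8 and the lower pair of litter N5. At P14 it had 0, 12, 23 and 12 counts in HIE, 1, 3, 0 and 3 in hypoxia and 2, 0, 0 and 0 in control animals. The 3 HIE animals with 12 or more counts were above every hypoxia and control animal, and the fourth was at 0. Group means were 0.107 ± 0.0978 CPM (HIE P7), 0.0237 ± 0.0208 (acute control), 0.262 ± 0.302 (HIE P14), 0.0484 ± 0.0406 (hypoxia P14) and 0.0127 ± 0.0255 (control P14). The SD in HIE P14 was larger than the mean. The exact permutation test gave p = 0.143 for HIE against control in the acute batch and at P14, and for HIE against hypoxia at P14. The P6H55 controls alone had a mean of 0.0304 CPM. Klrb1c belongs to a family of closely related genes, and RSEM shares reads that match several of them, so its counts depend on that division.

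Gzma, the granule protease, had 7, 2, 7 and 7 counts in HIE P7 pups and 0, 3, 2 and 3 in acute controls. It had 5, 1, 13 and 9 counts in HIE P14, 0, 0, 0 and 1 in hypoxia P14 and 0, 4, 1 and 0 in control P14 animals. In each batch 3 of the 4 HIE animals were above all controls in TMM-scaled CPM and 1 was not. At P14 this rested on HIE replicate 1 at 0.118 against control replicate 2 at 0.117 CPM (5 and 4 counts). By library size alone their order turned, at 0.108 and 0.117 CPM. Group means were 0.0788 ± 0.0351 CPM against 0.0242 ± 0.0165 in the acute batch and 0.164 ± 0.162, 0.00701 ± 0.0140 and 0.0371 ± 0.0552 CPM for HIE, hypoxia and control at P14. The exact permutation test gave p = 0.114 in the acute batch, p = 0.143 for HIE against control and p = 0.0571 for HIE against hypoxia at P14, where p = 0.0286 is the smallest that 4 animals against 4 allow. The P6H55 controls alone had a mean of 0.0315 CPM.

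Nkg7 did not share this pattern in the acute batch, with 4, 0, 6 and 2 counts in HIE and 4, 6, 8 and 0 in control pups, where both control litters had a mean near that of all 4 controls (0.0557 and 0.0566 CPM). At P14 it had 1, 6, 11 and 5 counts in HIE, 1, 1, 2 and 1 in hypoxia and 5, 4, 2 and 0 in control animals. Means at P14 were 0.129 ± 0.139, 0.0364 ± 0.0166 and 0.0768 ± 0.0585 CPM, and the exact permutation p was 0.686 for HIE against control and 0.143 for HIE against hypoxia. HIE P14 replicate 3 (litter P6H12) held the highest CPM of all 20 animals for Nkg7, Gzma and Klrb1c (0.333, 0.394 and 0.697 CPM), and also for Cd79a and Ms4a1 (0.909 and 0.788 CPM). The same animal had the highest sum of 8 neutrophil markers, 443 CPM against 15.6 to 290 CPM in the other 19. Its total was 31810227 counts, and whether other cells account for these levels was not tested.

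Among 22 further NK and cytotoxic genes, several that NK cells are known by were at the floor. The receptors Klrc1, Klre1, Klra4 and Klra7 and the chemokine Xcl1 never passed 3 counts, and Ncr1 and Klra8 passed it in 1 animal each, with 6 and 4 counts. Klrd1 (CD94), a receptor chain that NK and T cells share, reached 83 counts and passed 3 in 15 animals. Gzmb, another granzyme, was above 3 counts in 3 animals, and its highest count, 9, was again in HIE P14 replicate 3. The level per kb of transcript was highest for Ctsw (cathepsin W, a protease of cytotoxic cells), Eomes (a transcription factor of NK and CD8 T cells that brain progenitors also use) and Ccl5 (a chemokine), at 1.74, 0.901 and 0.731 CPM per kb over the 20 animals. The genes of interest stood at 0.0770 (Nkg7), 0.0699 (Gzma) and 0.0345 (Klrb1c) CPM per kb. Summed over the 22 genes, the mean was 6.91 ± 0.494 CPM in HIE P7 and 11.9 ± 4.83 in acute controls, which include the P6H63 pups. At P14 it was 7.42 ± 2.15, 6.13 ± 1.33 and 9.47 ± 1.21 CPM for HIE, hypoxia and control, so this sum was not higher in HIE than in control animals.

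**Figure D2:**
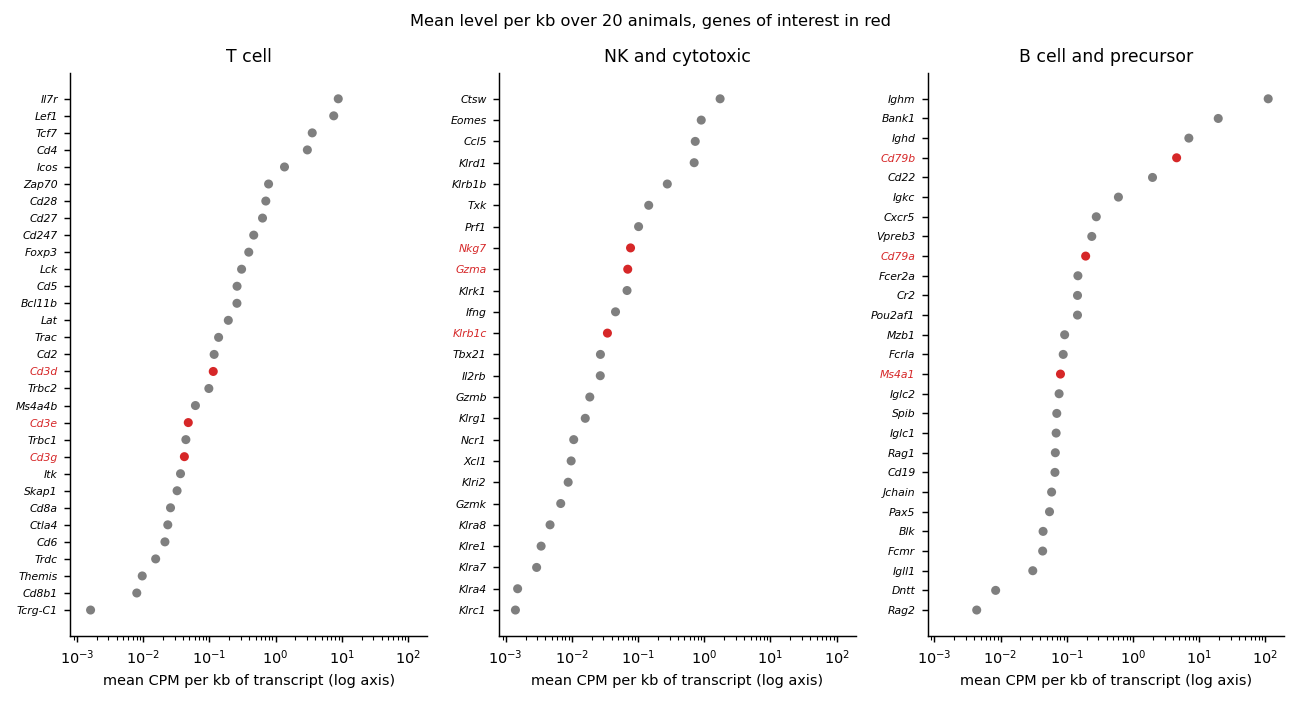
Mean level over 20 animals in CPM per kb of the canonical transcript (x axis, log scale) for the genes of interest (red) and the other genes of each lymphocyte list (grey), ordered by level. Cd79b at 4.56 CPM per kb stands well above the other 8 red genes, which lie between 0.0345 and 0.193.

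Cd79b was the only abundant gene of the group. HIE P7 pups had 920, 536, 818 and 693 counts, and acute controls 87, 58, 741 and 275. In CPM this was 12.1, 7.07, 11.3 and 9.85 against 0.989, 0.655, 10.3 and 3.22. The 2 lowest values of all 20 animals were the litter P6H63 controls, and control replicate 3 was inside the HIE range. Means were 10.1 ± 2.22 and 3.79 ± 4.49 CPM, and the log2 fold change was 1.40 ± 0.78 (adjusted p = 0.258, edgeR quasi-likelihood). With litter P6H63 as the only controls the value was 3.65 (adjusted p = 4.8e-05, in a fit that called 58.5% of all genes), with litter P6H55 as the only controls it was 0.57 (adjusted p = 0.533), and without control replicate 3 it was 2.64 (adjusted p = 0.0337, in a fit that called 24.2% of all genes). The sign held and the size followed the choice of control litter.

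At P14, Cd79b was at 6.07, 10.6, 5.70 and 7.84 CPM in HIE, 5.29, 5.82, 4.29 and 5.89 in hypoxia and 7.85, 3.68, 9.56 and 2.40 in control animals. The hypoxia animals were the most alike, and the controls fell into a P4H4 pair at 7.85 and 9.56 and a P6H8 pair at 3.68 and 2.40 CPM. The log2 fold change was 0.34 ± 0.40 for HIE against control, -0.17 ± 0.39 for hypoxia against control and 0.48 ± 0.22 for HIE against hypoxia (adjusted p = 0.863, 0.922 and 0.999). The animal names carry a P4H or P6H prefix, and within the prefixes HIE against control was -0.10 among P4H and 1.14 among P6H animals, with 2 animals a group. Hypoxia against control was 0.78 among P6H animals, opposite in sign to the value over all animals. HIE against hypoxia was 0.34 among P6H animals.

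The 2 acute controls lowest in Cd79b were also those lowest in microglia markers, and whether the one accounts for the other was not tested. Control replicate 4, of litter P6H55, was also below every HIE P7 pup in Cd79b, at 3.22 CPM. Its marker sum was above those of the P6H63 controls but also below every HIE P7 pup, the lowest of which had 17796 CPM. Per 10000 counts of the 12 microglia markers, Cd79b had 6.34, 3.49, 6.37 and 5.50 counts in HIE P7 and 4.55, 4.61, 6.49 and 2.30 in acute controls. On this scale the P6H63 controls lay within the range of the HIE pups, and the difference of the mean log2 values was 0.33, against 2.20 in CPM (exact permutation p = 0.457 and p = 0.0857). At P14 the same ratio was 2.04 to 3.32 in HIE, 1.76 to 2.64 in hypoxia and 1.29 to 3.82 in control animals, and the P4H4 and P6H8 controls remained apart (3.59 and 3.82 against 1.56 and 1.29). All 4 HIE P14 values were below all 4 HIE P7 values, a difference of -0.95 in mean log2 ratio with exact permutation p = 0.0286, the smallest possible, and 0.171 after adjustment over 6 comparisons. In CPM the same difference was -0.43 (exact permutation p = 0.171), and the marker sum in the denominator had a mean of 18764 CPM at P7 and 27160 CPM at P14. This ratio was added after the data had been seen.

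**Figure D3:**
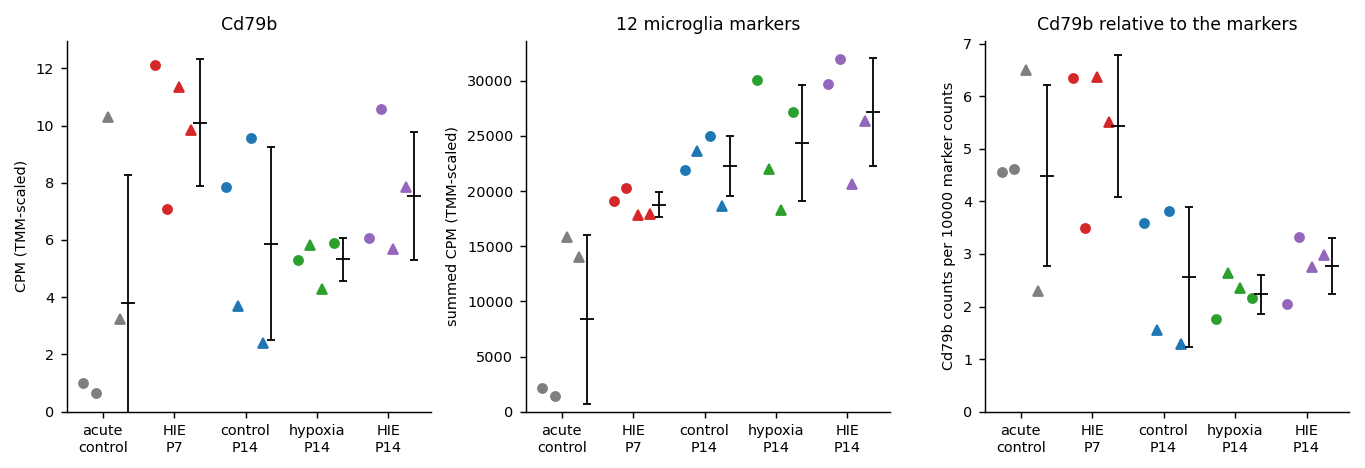
Cd79b in CPM (left), the summed CPM of 12 microglia markers (middle) and Cd79b counts per 10000 marker counts (right) in each animal, by group. Symbols as in the plot of the 9 genes, with mean and SD of 4 animals. The 2 acute controls at 0.989 and 0.655 CPM of Cd79b are those with 2172 and 1419 CPM of markers, and at 4.55 and 4.61 they lie among the other pups in the right panel.

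Cd79a, the partner of Cd79b in the B cell receptor complex, did not follow it. HIE P7 pups had 25, 6, 14 and 18 counts (0.329, 0.0791, 0.194 and 0.256 CPM) and acute controls 49, 36, 18 and 50 (0.557, 0.406, 0.250 and 0.586 CPM). Controls were higher on average, and control replicate 3 was within the HIE range. The log2 fold change was -1.08 ± 0.46 (adjusted p = 0.175, edgeR quasi-likelihood) and was -1.13 and -0.98 against litters P6H63 and P6H55 alone. Unlike Cd79b, Cd79a was not low in the P6H63 pups, and per 10000 microglia marker counts it stood at 2.57 and 2.86 there and at 0.0349 to 0.440 in the other 18 animals. At P14, Cd79a had 11, 18, 30 and 18 counts in HIE, 5, 6, 4 and 11 in hypoxia and 3, 9, 7 and 7 in control animals. Replicate 3 of HIE lay at 0.909 CPM and the other HIE animals at 0.259 to 0.266, with control animals at 0.0765 to 0.263, and the exact permutation p was 0.0857. The HIE difference was thus below 0 in the acute batch and above 0 at P14, and the test of that change gave a log2 value of -2.14 ± 0.76 with an adjusted p = 0.242 over all genes by edgeR's quasi-likelihood test. It was -2.02 with the P6H55 controls alone (adjusted p = 0.533).

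Over the 20 animals Cd79b exceeded Cd79a by 4.56 against 0.193 in CPM per kb of transcript, although their proteins form a pair in B cells. Ms4a1 was lower still at 0.0803 CPM per kb. Ms4a1 had 16, 4, 17 and 10 counts in HIE P7 pups and 3, 12, 10 and 11 in acute controls. At P14 there were 26, 7, 26 and 21 counts in HIE, 7, 17, 4 and 5 in hypoxia and 6, 13, 14 and 5 in control animals. Groups overlapped in both batches, with log2 fold changes of 0.54 ± 0.55 at P7 and 0.61 ± 0.64 at P14 for HIE against control (adjusted p = 0.514 and 0.836, edgeR quasi-likelihood). Against the P6H55 controls alone the P7 value was 0.25. Against hypoxia the HIE P14 value was 0.88 ± 0.66.

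In the treatment comparisons none of the tested genes passed an adjusted p of 0.05 by the quasi-likelihood test. For HIE against control in the acute batch 4 of the 9 genes passed the filter on low counts (Cd3d, Cd79a, Cd79b and Ms4a1). Of these 0 were called, against 0.0666% of 22517 genes tested. An unadjusted p under 0.05 was found for 1 of the 4 (Cd79a) and for 6143 of the 22517 genes. DESeq2 and the edgeR likelihood ratio test called 0 of the 4 where they called 13.6% and 6.44% of all genes. For HIE against control at P14, 0 of 3 were called by the quasi-likelihood test, DESeq2 or the likelihood ratio test, where 0.00478%, 2.42% and 1.13% of all genes were called. For hypoxia against control only Cd79b could be tested, and it was not called by any of these tests (0.00955%, 0.807% and 0.305% of all genes). For HIE against hypoxia 0 of 3 were called (0.00955%, 0.0716% and 0.100% of all genes). In these P14 comparisons none of them had an unadjusted p under 0.05 by the quasi-likelihood test. The difference of the HIE effect between the acute batch and P14 was tested for 5 genes. It was called for 0 of them (0.00405%, 2.73% and 2.17% of all genes). By the quasi-likelihood test 1 of them (Cd79a) and 3434 of 24693 genes had an unadjusted p under 0.05. The median log2 fold change of the tested genes was 0.58, 0.34, -0.17 and 0.48 in the treatment comparisons, beside -0.08, 0.01, -0.01 and -0.01 over all genes tested.

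**Figure D4:**
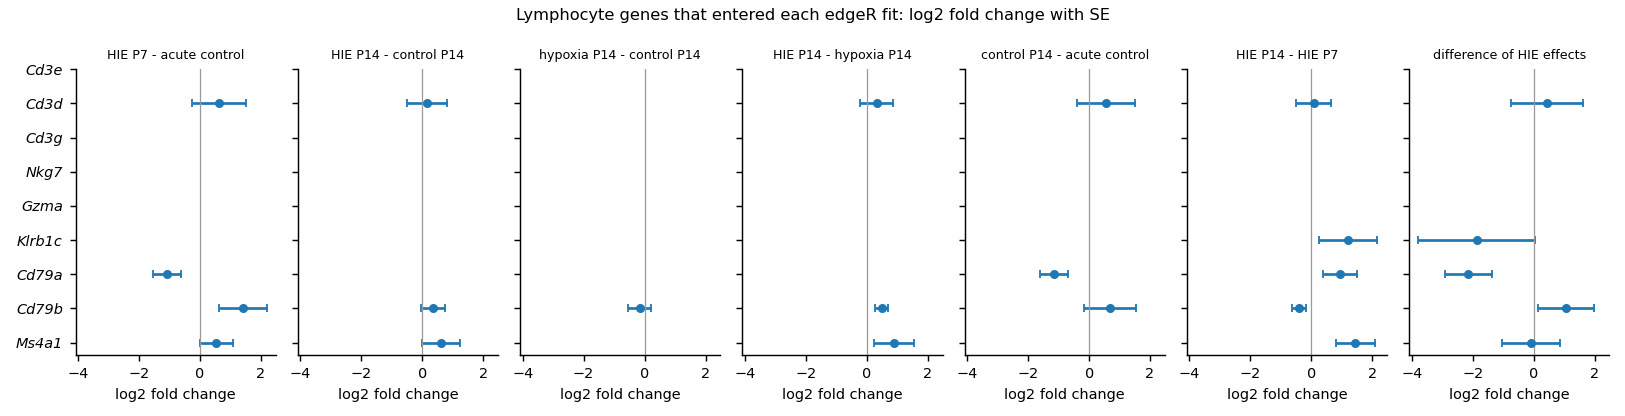
Log2 fold change (x axis) with its SE for each gene that passed the filter on low counts, in 7 comparisons. A row without a point was not tested there. The acute comparison of Cd79b at 1.40 and Cd79a at -1.08 lie on opposite sides of 0, and no value shown passed an adjusted p of 0.05.

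Between the days, which are also the deposited batches, the controls differed at 33.0% of all genes and the HIE animals at 46.0%. None of the 9 genes was among these by the quasi-likelihood test, of 3 tested in controls and 5 in HIE animals. In each comparison 1 of them had an unadjusted p under 0.05. Over all genes 10288 of 22320 in controls and 12101 of 22579 in HIE animals did. In controls Cd79a was at 0.450 ± 0.155 CPM in the acute batch and 0.196 ± 0.0819 at P14, a log2 fold change of -1.16 ± 0.45 (adjusted p = 0.0794, edgeR quasi-likelihood). It was called by DESeq2 (adjusted p = 0.0489, with 42.8% of all genes called), by the likelihood ratio test (adjusted p = 0.0497, with 36.7%) and by the quasi-likelihood test without control replicate 3 of the acute batch (adjusted p = 0.0435, with 39.1%). It did not pass the filter with the P6H55 controls alone, whose mean was 0.418 CPM. In HIE animals Ms4a1 was at 0.160 ± 0.0818 CPM at P7 and 0.451 ± 0.307 at P14, a log2 fold change of 1.44 ± 0.63 (adjusted p = 0.0835, edgeR quasi-likelihood). The likelihood ratio test called it (adjusted p = 0.0451, with 46.7% of all genes called), DESeq2 did not (adjusted p = 0.0547, with 49.8%). Without HIE P14 replicate 2, whose 2 libraries were summed, the quasi-likelihood test called Ms4a1 at 1.80 (adjusted p = 0.0214) and Cd79b at -0.61 (adjusted p = 0.0392), with 45.7% of all genes called. With shares of this size called over all genes, such calls are no result about these genes. In controls Ms4a1 did not pass the filter, and its 4 P14 values, 0.153, 0.380, 0.440 and 0.160 CPM, were all above the 4 acute values, 0.0341, 0.135, 0.139 and 0.129 CPM (exact permutation p = 0.0286). This was the only one of 35 such tests on genes left out by the filter with an unadjusted p under 0.05. The separation held only with TMM scaling. By library size alone P14 control replicate 1 was at 0.152 CPM, below acute control replicate 2 at 0.162 CPM. The days differed at 33.0% of all genes tested in controls, so this separation is no result about Ms4a1.

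Other genes of the lymphocyte lists were measured far more deeply than the receptor chains. Of 28 further T cell genes 14 were above 3 counts in all 20 animals, of 20 further B cell genes 9, of 22 NK and cytotoxic genes 3, and of 4 matched B cell precursor genes 0. The highest per kb among T cell genes were Il7r (the interleukin-7 receptor), Lef1 and Tcf7 (transcription factors of the Wnt pathway that other cells of the brain use as well), at 8.86, 7.57 and 3.58 CPM per kb. Among B cell genes they were Ighm (the immunoglobulin mu constant region), Bank1 (a B cell adaptor) and Ighd (the delta constant region), at 110.2, 19.4 and 6.98 CPM per kb. Among precursor genes they were Rag1 (receptor gene recombination), Igll1 (surrogate light chain) and Dntt, at 0.0672, 0.0307 and 0.00843 CPM per kb.

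Apart from Ighm, the antigen receptor constant regions and V segments given here had few counts. Ighm had 1707 to 26901 counts per animal, while Igkc (the kappa light chain constant region) had 4 to 32 and the 221 immunoglobulin V segments together 1 to 38. Trac, the T cell receptor alpha constant region, had 0 to 16 counts, and the 144 T cell receptor V segments together had 2 to 15. The immunoglobulin and T cell receptor J and D segments were listed at 0 in every animal. Whether reads can be assigned to these segments at all was not tested, so their values are not evidence of absence.

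In the treatment comparisons no gene of these lists passed the quasi-likelihood test. In the acute comparison 15 T cell, 7 NK, 14 B cell and 1 precursor gene were tested. Their median log2 fold changes were 0.14, 0.08, 0.02 and -0.64 beside -0.08 over all genes. Of them 4, 2, 3 and 0 had an unadjusted p under 0.05, as did 6143 of all 22517 genes. With the P6H55 controls alone 0 were called and the medians were -0.046, -0.0084, 0.064 and -0.29 beside -0.024. DESeq2 called Cd5 and Cd22 higher and Cd247, Tcf7, Lef1 and Ctsw lower there, and the likelihood ratio test Cd22, Cd247 and Tcf7 in the same directions, in fits that called 13.6% and 6.44% of all genes, so that these calls are no result about the lists. At P14, HIE against control was tested for 14, 6, 9 and 1 genes of the lists with medians of 0.21, -0.32, 0.24 and -0.13 beside 0.01. Of them 3, 1, 1 and 0 had an unadjusted p under 0.05, as did 2066 of all 20934 genes. Only Eomes was called, by DESeq2 and the likelihood ratio test, in fits that called 2.42% and 1.13% of all genes. Its log2 fold change was -0.94 ± 0.23 in the quasi-likelihood fit (adjusted p = 0.238). For hypoxia against control DESeq2 called Bank1 higher, in a fit that called 0.807% of all genes (0.77 ± 0.21 in the quasi-likelihood fit, adjusted p = 0.462). A single gene called in each of these comparisons is no result about the lists. For HIE against hypoxia no list gene was called by any of the tests.

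Between the days genes of the lists were called in both directions, in fits that called 33.0% of all genes in controls and 46.0% in HIE animals. Counts in these main fits are near or under those shares and are no result about the lists. In controls 2 of 15 T cell genes rose, Il7r by 3.87 ± 0.81 and Foxp3 (the regulatory T cell factor) by 1.62 ± 0.38 on the log2 scale, and 2 fell, Tcf7 by 2.02 ± 0.36 and Lef1 by 1.71 ± 0.36. Of 7 NK genes Klrd1 rose by 5.60 ± 0.68 and Ctsw fell by 0.92 ± 0.29. Of 10 B cell genes 0 were called, and the precursor gene Rag1 was not. An unadjusted p under 0.05 was found for 1 of the 10 B cell genes and for 10288 of all 22320 genes. The adjusted p of these calls was 0.00103 to 0.0419 by edgeR's quasi-likelihood test. With the P6H55 controls alone 31.2% of all genes were called. The values were 3.01 for Il7r, 1.18 for Foxp3, -1.39 for Tcf7, -0.93 for Lef1 and 4.83 for Klrd1, each still called. Cd4, Cd28, Icos, Cd22 and Ighd were called there as well, each lower at P14 (adjusted p at most 0.0275, quasi-likelihood test). The calls were 7 of 15 T cell genes, above that share, and 1 of 8 NK and 2 of 10 B cell genes. Medians of the T cell, NK and B cell lists were 0.11, 0.74 and -0.18 there, beside 0.04 over all genes. The call of Ctsw was lost when either P6H63 control or any P14 control was left out, and with the P6H55 controls alone.

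In HIE animals, where 46.0% of all genes were called, 4 of 17 T cell genes rose from P7 to P14 (Il7r by 2.71 ± 0.20, Cd247 by 1.72 ± 0.30, Foxp3 by 1.52 ± 0.36 and Cd27 by 1.29 ± 0.38). Of the same 17 genes 3 fell (Cd28 by 1.59 ± 0.40, Icos by 1.27 ± 0.31 and Tcf7 by 0.64 ± 0.20). Cd28, Icos and Cd27 encode costimulatory receptors, and Cd247 the zeta chain of the CD3 complex. Of 9 NK genes Klrd1 rose by 4.25 ± 0.66 and Eomes fell by 0.81 ± 0.21. Of 14 B cell genes Igkc rose by 1.55 ± 0.45 and Bank1 by 0.84 ± 0.22, and 4 fell, Cd22 (an inhibitory receptor) by 2.05 ± 0.29, Ighd by 1.19 ± 0.20, Cxcr5 by 1.05 ± 0.22 and Ighm by 0.87 ± 0.17. These adjusted p were at most 0.0213 by edgeR's quasi-likelihood test. Leaving out HIE P14 replicate 4 ended the call of Cd27 and, as did leaving out HIE P14 replicate 3 or HIE P7 replicate 4, that of Tcf7. Leaving out HIE P7 replicate 1 or 2 ended that of Igkc. Medians of the T cell, NK and B cell lists were 0.08, 0.91 and 0.10 in controls and -0.29, 0.19 and 0.44 in HIE animals, beside -0.02 and 0.02 over all genes.

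The pattern over animals was compared with that of 15656 genes (15655 for Cd79b) with a mean of at least 1 CPM in both batches, by Spearman's rho within the 8 acute and within the 12 P14 animals, ranked by the lower of the 2. Animals of a litter and of a library depth share these ranks, so the values are a description. Cd79b was closest to Ppt1 (rho 0.857 and 0.811), Mtx1 (0.810 and 0.867), Cwf19l1 (0.905 and 0.783), Rapsn (0.833 and 0.769) and Fech (0.762 and 0.783). The 12 microglia markers had rho of 0.476 to 0.786 in the acute animals and -0.014 (P2ry6) to 0.601 (Tmem119) at P14, and ranked from 269 to 4941 among the genes compared. Cd3d was closest to Retnlg (0.905 and 0.706), S100a8 (0.738 and 0.699), Cd177 (0.690 and 0.720), Nfe2 (0.762 and 0.664) and Stfa2 (0.810 and 0.650). Klrb1c was closest to Fip1l1 (0.738 and 0.725), Tbck (0.690 and 0.682), Cd276 (0.857 and 0.674), Dennd1a (0.786 and 0.667) and 6330418K02Rik (0.738 and 0.667), with ties among its low counts.

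In the HIE P14 group 2 animals were sequenced as 2 libraries each, which shows the spread without any difference between animals. In replicate 2 the libraries held 385 and 332 counts of Cd79b, 21 and 9 of Cd3d, 3 and 3 of Cd3e, 7 and 1 of Cd3g, 5 and 1 of Nkg7, 1 and 0 of Gzma, 2 and 10 of Klrb1c, 13 and 5 of Cd79a and 4 and 3 of Ms4a1. In replicate 4 they held 277 and 268 of Cd79b, 3 and 3 of Cd3d, 3 and 1 of Cd3e, 1 and 1 of Cd3g, 2 and 3 of Nkg7, 5 and 4 of Gzma, 6 and 6 of Klrb1c, 9 and 9 of Cd79a and 8 and 13 of Ms4a1. Cd79b was close in both animals, and the rarer genes were close in some cases and not in others.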

How the data were processed

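RNA of CD11b+ brain cells was sequenced from stranded, ribosomal RNA-depleted libraries (22 libraries, 20 animals). The authors mapped reads to GRCm39 with STAR, counted them with RSEM and deposited expected counts per gene, unscaled. In each library 84.2 to 88.0% of values were whole. The counts were rounded, and libraries of 1 animal summed. Symbols, positions and canonical transcript lengths came from GENCODE M39 (56017 of 56691 genes matched). Levels are CPM scaled by TMM over all 20 animals. Groups came from the labels. Each comparison was fitted on all genes with edgeR 4.0.16 in R 4.3.3 (quasi-likelihood test, TMM, default filter on low counts, Benjamini-Hochberg adjustment). DESeq2 1.42.0, the likelihood ratio test, library size scaling, no filter, litter and prefix subsets, the first library of an animal and leaving out each animal were alternatives. Genes left out by the filter were compared by an exact permutation test (two-sided, 70 relabellings). Fits were tested on simulated data. The genes and lists were chosen with earlier results of these data known. Named list genes are those past an adjusted p of 0.05 (at most 3 each way per list and fit) and the 3 highest per kb. Cd27, genes called by DESeq2 or the likelihood ratio test alone, and list genes near 0 counts were named after their values were seen. The same holds for genes called only with the P6H55 controls. P-values measure the spread between animals, of which pairs are littermates. Of the B cell precursor genes 4 of 6 matched the annotation by symbol, and of the microglia markers 12 of 13.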

Additional observations from a re-analysis of the deposited data

Results flagged for a closer look

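Within groups of 4 animals, 7 of 50 sets of values held an animal whose gap to its neighbour exceeded Dixon's critical value. Chance gives about 1 in 20 for normally distributed values, a rate that does not hold for counts near 0. A set with all other animals at 0 passes whatever the count, so whether the 7 exceed chance cannot be judged. All 7 but that of Cd79a involve an animal with 5 counts or fewer. Cd3g reached 0.153 CPM (5 counts) in hypoxia P14 replicate 3 with the others at 0. Nkg7 reached 0.0613 CPM (2 counts) in the same animal. Gzma was at 0.0280 CPM (1 count) in hypoxia P14 replicate 4 with the others at 0, and at 0.0264 CPM (2 counts), the lowest, in HIE P7 replicate 2. Klrb1c was at 0.0510 CPM (2 counts) in control P14 replicate 1 with the others at 0. Ms4a1 was at 0.0341 CPM (3 counts), the lowest, in acute control replicate 1. Cd79a was at 0.909 CPM (30 counts) in HIE P14 replicate 3, where the other HIE animals lay at 0.259 to 0.266 CPM.

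The HIE difference of Cd79a went opposite ways in the acute batch and at P14: each HIE P7 pup was below the mean of its controls and each HIE P14 animal above. The test of that difference gave -2.14 on the log2 scale and an adjusted p of 0.242 by edgeR, so that it did not pass.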

How the results depend on the processing

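No paired analysis was possible because the replicate numbers only name the animals within a group and tie no animal to one of another group. Of the 9 genes, the number called stayed at 0 under most settings. It became 1 for HIE against control at P7 with the P6H63 controls only, where 58.5% of all genes were called. There it was 0 to 1 when single animals were left out, the 1 in a fit that called 24.2% of all genes. For the controls between days it became 1 with DESeq2 and 1 with the likelihood ratio test, with 42.8% and 36.7% of all genes called. Without single animals it was 0 to 1 there, the 1 in a fit that called 39.1%. For HIE between days it was 1 with the likelihood ratio test, with 46.7% of all genes called. Without single animals it was 0 to 2, the 2 in a fit that called 45.7%. With such shares these calls are no result about the 9 genes.

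Signs of fitted log2 fold changes turned as follows. With the P6H55 controls only, Cd3d was at -0.019 (P7), -0.079 (controls between days) and -0.18 (difference of the HIE effect), and Cd79b at -0.15 between days in controls. With animals of 1 name prefix, Cd79b was at -0.10 (HIE against control, P4H) and 0.78 (hypoxia against control, P6H), and Cd3d at -0.056 (HIE against hypoxia, P6H). Leaving out single animals moved Cd3d over -0.15 to 0.79 (HIE against control at P14), -0.094 to 0.84 (controls between days), -0.24 to 0.67 (HIE between days) and -0.17 to 1.12 (difference), Cd79b over -0.43 to 0.16 (hypoxia against control) and Ms4a1 over -0.42 to 0.33 (difference). The mean log2 difference of Cd79b was 0.058 in CPM and -0.054 per microglia marker count for hypoxia against control, and 1.24 and -0.88 between days in controls. The cause was not tested. Of 231 log2 values without single animals 206 kept direction and call, and of 151 under other settings 140.

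Counts of all genes called moved more. At P7 there were 15, against 3073 by DESeq2, 1449 by the likelihood ratio test, 13904 with the P6H63 and 26 with the P6H55 controls, and 10 to 5588 without single animals. For HIE against control at P14 there was 1, against 507, 237, 2 with library size or a prefix term, 3 without a filter or among P6H animals, 15 among P4H animals, 0 with all P14 animals in 1 fit, and 0 to 6. For hypoxia against control there were 2, against 169, 64, 0 in 1 fit or among P6H animals, and 1 to 7. For HIE against hypoxia there were 2, against 15, 21, 5 without a filter, 0 in 1 fit, and 1 to 3. For the difference there was 1, against 674, 535, 0 by library size or with P6H55 controls, and 0 to 1200. Between days in controls 7363 became 4855 to 8620 without single animals. Library size scaling moved the median of all genes from -0.08 to -0.28 at P7, from -0.02 to -0.23 between days in controls, where the share higher among called genes went from 47.4% to 32.4%, and from -0.04 to -0.20 for the difference. Depth limits Cd3e, Cd3g, Nkg7, Gzma and Klrb1c, which were at or under 3 counts in 10 to 16 animals.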
